A study of Mus musculus with 6 samples.

Results

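The genes described here are those of the endothelin system (*Edn1*, *Ece1*, *Ece2*, *Ednra*, *Ednrb*) and the natriuretic peptide receptors (*Npr1*, *Npr2*, *Npr3*), 8 genes picked out by their symbols. Of these 8, 7 had a row among the 24016 mouse genes of the deposited table and all 7 were tested. The endothelin B receptor gene *Ednrb* (ENSMUSG00000022122) has no row in the table used here and was not analysed. The study sequenced RNA of MC3T3-E1 cells, a mouse preosteoblast line from calvaria, of which the labels name subclone 4, so that all cultures came from 1 clonal line of unmodified (WT) cells. After 6 days of differentiation in 10 mM β-glycerophosphate and ascorbic acid at 50 μg/ml, the cultures were given vehicle (n = 3) or corticosterone at 100 nM (n = 3), the main glucocorticoid of mice, for 24 h. The treatment description common to all 6 samples also lists calcitriol at 10 nM, so both groups are described with it, and the labels give passages 4 to 10 in one field and 6 to 12 in another. The labels do not tie the replicates to separate passages or days, so p-values measure the spread between cultures of 1 line.

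Endothelin-1 is made as a precursor that furin and then the endothelin-converting enzymes cleave to the active peptide, which acts on the G-protein-coupled receptors EDNRA and EDNRB. It is best known as a vasoconstrictor, and in bone it stimulates osteoblasts, mainly through EDNRA. The natriuretic peptides act on the receptor guanylate cyclases NPR1, which binds the atrial and B-type peptides, and NPR2, which binds the C-type peptide and drives growth of endochondral bone, while NPR3 has no cyclase domain and clears all of these peptides from the extracellular space.

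The values, called normalized counts here, are reads per gene over a size factor that the authors set for each library (0.782 to 1.30). The libraries held 19076586 to 25638645 reads on genes with vehicle and 16020401 to 18992332 with corticosterone, so all corticosterone libraries were shallower, and 3 reads, taken as the floor, correspond to a normalized count of 2.32 to 3.84. The comparison used the moderated test of limma on the log2 of the normalized count + 0.1, p-values were adjusted over all 24016 genes by the Benjamini-Hochberg method, and the threshold was an adjusted p under 0.05 with an absolute log2 fold change over 1. The glucocorticoid target genes *Tsc22d3*, *Fkbp5*, *Sgk1* and *Per1* rose by 1.49, 2.46, 2.75 and 2.02 on the log2 scale, which serves as a check of the treatment labels. All 10 osteoblast markers had reads. Their summed normalized count was 1.49e+06 to 1.54e+06 with vehicle and 1.29e+06 to 1.35e+06 with corticosterone, mostly from *Col1a1* and *Col1a2*. Of the 10 markers 8 were lower and 1, *Spp1*, higher by adjusted p. Endothelial markers, of which *Cdh5* and *Kdr* have no row in the table used here, summed to 22.8 to 50.3 with vehicle and 39.8 to 55.0 with corticosterone, mostly from *Vwf*, while *Pecam1*, *Tie1*, *Tek* and *Emcn* had means at or under the floor. The 4 smooth muscle markers summed to 19555 to 22417 with vehicle and 24450 to 27774 with corticosterone, nearly all of it *Acta2*, which rose by 0.31 on the log2 scale (limma adjusted p = 5.3e-04). *Cnn1*, which encodes calponin, rose from 52.1 to 108 (log2 fold change 1.04, limma adjusted p = 5.9e-04), past the threshold, and *Myh11* averaged 4.29 and 4.47. The macrophage and blood cell markers, of which *Ptprc* and *Adgre1* have no row in the table used here, summed to 262 to 300 with vehicle and 214 to 239 with corticosterone. Of these, *Lyz2* fell from 229 to 178 (limma adjusted p = 0.020). *Cd68* (31.6 and 30.4, limma adjusted p = 0.94) and *Csf1r* (22.2 and 15.3, limma adjusted p = 0.46) did not pass the test. The part of these marker lists in the results below was not tested. In bulk samples such as these, fewer cells of a type and less RNA per cell cannot be told apart.

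After corticosterone the osteoblasts had less endothelin A receptor mRNA and a different make-up of natriuretic peptide receptor mRNA. *Ednra* fell by 58.6% and was the only one of the 7 genes past the threshold, *Npr1* fell by 32.7% and *Npr2* by 11.9%, and *Npr3* rose by 58.5%. *Ece1* rose by 13.7%, and the ligand gene *Edn1* and the enzyme gene *Ece2* did not pass the test. An adjusted p under 0.05 was thus reached by 2 of the 7 genes in the higher direction, where 8.49% of all genes were called, and by 3 in the lower direction, where 8.2% of all genes were called. Past the threshold were 0 higher, against 1.38% of all genes, and 1 lower, against 1.4%. The ranges of the 3 corticosterone and the 3 vehicle libraries did not overlap in 5 of the 7 genes, compared with 29.6% of all genes. These background shares include genes with few reads, since 13880 of the 24016 had a mean of at least 10. The median log2 fold change was 0.03 over the 7 genes and -0.01 over all genes.

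**Figure D1:**
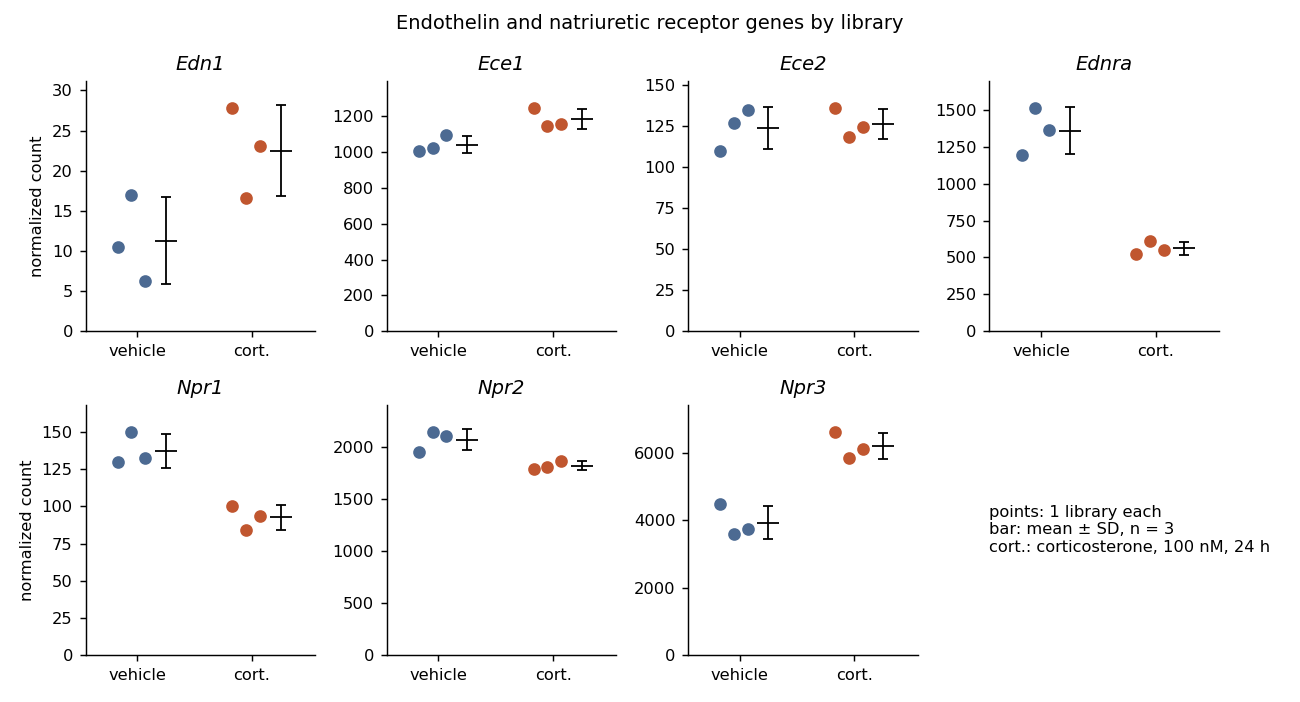
Normalized count (vertical axes, linear, starting at 0) of the 7 genes with a row, with 1 point per library and the mean ± SD of 3 libraries per group beside the points. For *Ednra* the corticosterone libraries sit between 522 and 609 and the vehicle libraries between 1194 and 1514, for *Npr3* the order is turned round, and only *Edn1* and *Ece2* have overlapping groups.

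*Edn1* (ENSMUSG00000021367, chr13:42301476-42307990 of GRCm38, plus strand) encodes the precursor of endothelin-1. Its normalized counts were 10.5, 17.0 and 6.21 with vehicle and 27.8, 16.6 and 23.03 with corticosterone, from 6 to 26 reads per library. The second corticosterone library lay just below the second vehicle library, and the other corticosterone libraries lay above all vehicle libraries, so the groups overlapped. The means were 11.2 ± 5.42 (SD, n = 3) and 22.5 ± 5.66 (SD, n = 3), a log2 fold change of 1.08 (standard error, SE, 0.44, 95% interval 0.13 to 2.02) that did not pass the test (limma adjusted p = 0.12, two-sided exact permutation p = 0.2). Summed over the libraries of a group, 41 vehicle and 59 corticosterone reads gave a depth-corrected ratio of 1.92 with a 95% counting interval of 1.27 to 2.93, which covers counting error only and not the spread between cultures. At this depth a change in the ligand transcript was not resolved, and the adjusted p stayed between 0.062 and 0.37 in all 16 alternative settings.

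The converting enzymes differed in how well they could be measured. *Ece1* (ENSMUSG00000057530, chr4:137862237-137965229, plus strand) encodes the main enzyme that releases endothelin-1 from its precursor. It had normalized counts of 1007, 1026 and 1094 with vehicle and 1248, 1148 and 1160 with corticosterone. All corticosterone libraries were above all vehicle libraries, by a narrow margin between the third vehicle and the second corticosterone library. The mean rose from 1042 ± 45.9 to 1185 ± 54.9 (SD, n = 3 each), which is a log2 fold change of 0.19 (SE 0.06, limma adjusted p = 0.032). This call was lost with any library left out (adjusted p 0.051 to 0.18), under upper-quartile scaling (0.26), with all libraries scaled to the same total (0.098) and without a variance trend (0.24).

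*Ece2* (ENSMUSG00000022842, chr16:20629828-20646485, plus strand), which encodes a related converting enzyme, had 109.5, 126.6 and 134.5 with vehicle and 136, 118 and 124 with corticosterone. The groups overlapped almost entirely, and the log2 fold change of 0.03 (SE 0.13, 95% interval -0.24 to 0.31, limma adjusted p = 0.93) turned negative under both scaling alternatives (-0.04 and -0.01). Of its exon length, 57.5% is shared with *Gm49333*, a protein-coding gene annotated on the same strand that has no row in the table used here, and 55.8% of its 31-base stretches (31-mers) occur in other genes' transcripts, so its level is uncertain.

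*Ednra* (ENSMUSG00000031616, chr8:77663031-77724464, minus strand) encodes the endothelin A receptor, which signals through Gq and G12 family proteins to calcium release and the actin cytoskeleton. The 250 bases before its start in RefSeq (GRCm38.p6, chr8:77724453-77724702, printed 5′ to 3′ on the minus strand) are shown because this gene was the one past the threshold:
*Ednra*: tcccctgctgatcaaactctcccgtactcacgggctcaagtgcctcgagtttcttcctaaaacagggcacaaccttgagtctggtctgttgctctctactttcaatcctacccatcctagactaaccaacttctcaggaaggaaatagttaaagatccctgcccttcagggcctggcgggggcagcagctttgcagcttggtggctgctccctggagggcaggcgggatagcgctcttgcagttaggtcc
This window, with 54.8% G and C, was searched on both strands for the glucocorticoid half-site AGAACA, the full response element (AGAACA, 3 bases of any kind, TGTTCT) and the AP-1 motif TGANTCA. It was also searched for 1 form of the repeat described for repression by glucocorticoids (CTCC, 1 base of any kind, GGAGA). Other gaps and inexact matches of the repeat were not searched. None of the motifs in these forms was found in it, which says nothing on binding outside the window or to other sequences. Of 32851 promoter windows of the same length, 0.00913% held the full element, 16.1% the half-site (which the full element contains), 6.75% the AP-1 motif and 0.588% the repeat.

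The normalized counts of *Ednra* were 1194, 1514 and 1363 in the vehicle libraries, from 1318 to 1961 reads. They were 522, 609 and 551 in the corticosterone libraries, from 431 to 551 reads. Every corticosterone library thus lay at about the same level, and the highest of them was well below the lowest vehicle library. The mean fell from 1357 ± 159.6 to 561 ± 43.8 (SD, n = 3 each), which is a log2 fold change of -1.27 (SE 0.08, 95% interval -1.44 to -1.10, limma adjusted p = 6.7e-09, two-sided exact permutation p = 0.1, the smallest that 3 against 3 allow). The gene stayed past the threshold in 16 of 16 alternative settings, with log2 fold changes from -1.36 to -1.19. The summed level of the osteoblast markers, mostly from *Col1a1* and *Col1a2*, was lower in the same libraries. The log2 fold changes of *Runx2*, *Sp7*, *Bglap* and *Ibsp* were -1.16, -1.34, -1.87 and -1.20, each past the threshold. The other markers changed less, with -0.15 for *Col1a1*, -0.35 for *Col1a2*, -0.41 for *Alpl*, -0.33 for *Sparc*, 0.05 for *Dmp1* and 0.23 for *Spp1*. The part of these marker changes in the fall of *Ednra* was not tested. An antisense transcript, *4933431K23Rik*, shares 91 exonic bases (1.66% of the exon length of *Ednra*) and had 34.2 ± 2.20 and 24.5 ± 4.81 (SD, n = 3 each, limma adjusted p = 0.30), far fewer than the receptor gene.

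Over the 6 libraries, 5 of 13879 other genes with a mean of at least 10 were nearest to *Ednra* in profile, by the Euclidean distance between log2 values centred on each gene's mean. They were *Tnfrsf19*, a receptor of the TNF family (distance 0.14), *Clec11a*, which encodes the osteogenic factor osteolectin (0.15), *Adnp*, a homeobox gene (0.15), *Mme*, which encodes the peptidase neprilysin (0.17), and *Kif26b*, a kinesin family gene (0.17). Their log2 fold changes were -1.30, -1.35, -1.23, -1.25 and -1.17. Since the libraries of a treatment lie together, a small distance here mostly reflects a fall of the same size, and the distances are given as a description.

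**Figure D2:**
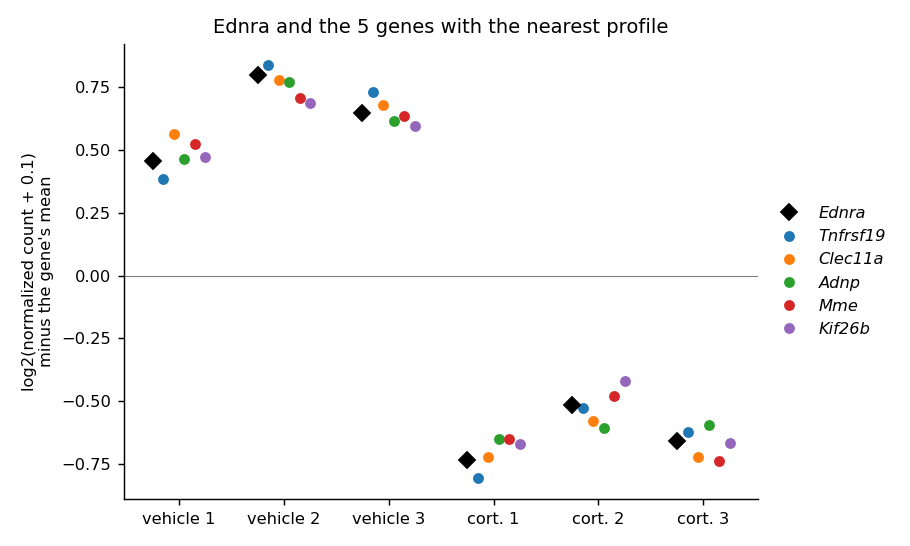
Log2(normalized count + 0.1) minus the mean of each gene over the 6 libraries (vertical axis) for *Ednra* (black diamonds) and the 5 genes nearest to it in profile (coloured circles, shifted sideways to keep them apart). In each of the 6 genes the 3 vehicle libraries are above 0 and the 3 corticosterone libraries below 0, and the second vehicle library is the highest.

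Of 12 other endothelin ligand, peptidase and receptor desensitization genes, 10 had a row (*Edn3* and *Kel* have none in the table used here). By adjusted p 4 were higher and 3 lower (8.49% and 8.2% of all genes), past the threshold 0 were higher and 2 lower (1.38% and 1.4% of all genes), and the median log2 fold change was -0.10, against -0.01 over all genes. *Mme* (chr3:63241537-63386030), whose product neprilysin degrades endothelins and natriuretic peptides, had normalized counts of 15734, 17883 and 17032 with vehicle and 6978, 7848 and 6554 with corticosterone. It fell by 1.25 on the log2 scale (SE 0.06, limma adjusted p = 2.4e-10), with no overlap between the groups and past the threshold in 16 of 16 alternative settings. *Edn2*, the endothelin-2 precursor gene, was past the threshold on 1, 3 and 4 reads with vehicle and 0 in each corticosterone library (limma adjusted p = 0.044). With the corticosterone group set to a floor of 3 reads, its depth-corrected level was 2.00-fold lower. That value takes the vehicle reads as exact and is not a confidence bound. The call of *Edn2* was lost in 8 of the 12 alternatives that gave an adjusted p.

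*Ecel1*, a neuronal relative of the converting enzymes, rose from 62.6 ± 7.73 to 124.7 ± 30.3 (SD, n = 3 each), which is a log2 fold change of 0.97 (SE 0.18, limma adjusted p = 9.6e-04). Among the genes that uncouple and internalize G-protein-coupled receptors, the arrestin gene *Arrb1* had 145, 154 and 132 with vehicle and 289, 231 and 308 with corticosterone, a rise of 0.93 on the log2 scale (SE 0.12, limma adjusted p = 2.1e-05). The receptor kinase gene *Grk3* fell by 0.57 (SE 0.08, limma adjusted p = 1.2e-04), and *Grk5* and *Grk6* rose by 0.18 and 0.15 (limma adjusted p = 0.019 and 0.035). The last calls were fragile, as *Grk5* kept an adjusted p under 0.05 in 10 and *Grk6* in 7 of 16 alternative settings. *Arrb2* (-0.20, adjusted p = 0.28) and *Grk2* (0.00, adjusted p = 0.99) did not pass the limma test.

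Downstream of the endothelin receptors, 23 of 24 transducer genes had a row (*Trpc6* has none in the table used here). Of these, 6 were higher and 5 lower by adjusted p (8.49% and 8.2% of all genes), past the threshold 2 were higher and 0 lower (1.38% and 1.4% of all genes), and the median log2 fold change was -0.06, against -0.01 over all genes. The genes of the G proteins that couple EDNRA to phospholipase C and the cytoskeleton did not pass the test, with log2 fold changes of -0.06 for *Gnaq*, -0.07 for *Gna11*, -0.04 for *Gna12* and -0.04 for *Gna13* (limma adjusted p = 0.46, 0.35, 0.63 and 0.69). Of the 4 phospholipase C beta genes, *Plcb3* and *Plcb4* did not pass the test. *Plcb2* rose from 66.2 ± 17.1 to 199.8 ± 14.4 (SD, n = 3 each), which is a log2 fold change of 1.62 (SE 0.17, limma adjusted p = 2.7e-06), and *Plcb1* fell from 271 ± 7.98 to 142 ± 18.8 (SD, n = 3 each), by 0.94 (SE 0.11, limma adjusted p = 9.0e-06). *Rock2*, which encodes a kinase of cytoskeletal contraction, had 3657, 3602 and 3601 with vehicle and 7456, 7367 and 7192 with corticosterone, a rise of 1.02 (SE 0.04, limma adjusted p = 1.6e-11) that was past the threshold in 14 of 16 alternative settings. The inositol trisphosphate receptor genes *Itpr1*, *Itpr2* and *Itpr3* rose by 0.30, 0.48 and 0.41, and the protein kinase C gene *Prkca* by 0.67, while *Prkce*, *Gnai2*, *Gnai3* and *Arhgef11* fell by 0.47, 0.29, 0.16 and 0.17 on the log2 scale. The limma adjusted p was at most 2.7e-04 for the 4 genes that rose and 2.6e-04, 4.9e-05, 0.0097 and 0.032 for those that fell. *Itpr3*, *Prkce*, *Gnai2* and *Gnai3* kept the call in 15 of 16 alternative settings, losing it without a variance trend, and *Arhgef11* kept it in 11.

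**Figure D3:**
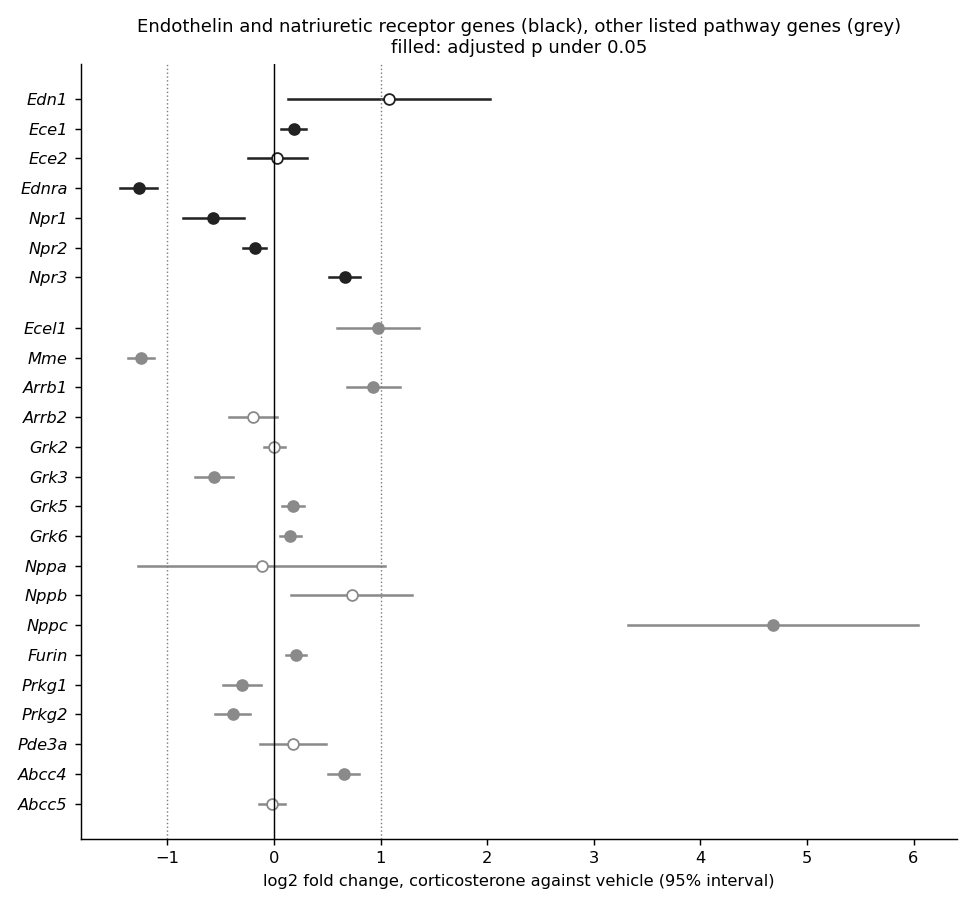
Log2 fold change of corticosterone against vehicle with its 95% interval (horizontal axis) for the 7 endothelin and natriuretic receptor genes (black) and for the genes with a mean of at least 10 in the endothelin and natriuretic lists (grey). Filled points have a limma adjusted p under 0.05 and dotted lines mark a log2 fold change of 1 in either direction. *Ednra* and *Mme* lie beyond the lower line and *Nppc* lies beyond the upper one with a wide interval, as does the open point of *Edn1* at 1.08, whose interval reaches from 0.13 to 2.02.

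*Npr1* (ENSMUSG00000027931, chr3:90450591-90465866, minus strand) encodes the guanylate cyclase receptor of the atrial and B-type peptides. It had normalized counts of 129.7, 150.5 and 132 with vehicle and 101, 83.9 and 93.4 with corticosterone, from 73 to 195 reads per library. The groups did not overlap, and the mean fell from 138 ± 11.3 to 92.7 ± 8.37 (SD, n = 3 each), which is a log2 fold change of -0.57 (SE 0.13, 95% interval -0.86 to -0.28, limma adjusted p = 0.0065). The adjusted p was under 0.05 in 15 of 16 alternative settings and 0.0501 without a variance trend. An antisense gene, *Gm16048*, overlaps 559 bases (11.7%) of its exons and has no row in the table used here. The library kit does not mark the strand, so reads of the pair cannot be told apart.

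*Npr2* (ENSMUSG00000028469, chr4:43631935-43651244, plus strand), the cyclase receptor of the C-type peptide, had 1957, 2150 and 2103 with vehicle and 1789, 1811 and 1868 with corticosterone. The corticosterone libraries were all lower, although the highest of them came near the first vehicle library. The mean fell from 2070 ± 101 to 1823 ± 40.6 (SD, n = 3 each), which is a log2 fold change of -0.18 (SE 0.05, 95% interval -0.29 to -0.08, limma adjusted p = 0.016). This small change lost the call without a variance trend (0.22), without the second vehicle library (0.060), without the third vehicle library (0.10) and without the first (0.088) or second (0.066) corticosterone library. The antisense gene *Gm12473*, which overlaps 266 bases (5.7%) of its exons, had 105 ± 12.1 and 96.6 ± 11.3 (SD, n = 3 each).

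*Npr3* (ENSMUSG00000022206, chr15:11839896-11907287, minus strand) encodes the clearance receptor and was the gene with the most reads of the 7. The 250 bases before its RefSeq start (GRCm38.p6, chr15:11907372-11907621, printed 5′ to 3′ on the minus strand, with the half-site AGAACA in capitals) are shown because *Npr3* was the one receptor gene that rose:
*Npr3*: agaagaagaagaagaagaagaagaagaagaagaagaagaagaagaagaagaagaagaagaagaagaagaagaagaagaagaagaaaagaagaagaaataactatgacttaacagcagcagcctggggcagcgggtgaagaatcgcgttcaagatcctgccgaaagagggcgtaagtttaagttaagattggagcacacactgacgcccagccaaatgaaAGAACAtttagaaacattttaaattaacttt
The half-site lies 31 bases before the start, a match that 16.1% of all windows also hold at some position, and the window has 38.8% G and C. This RefSeq start lies 84 bases outside the GENCODE gene, and the last 30 bases of the RefSeq entry were found in no GENCODE transcript of *Npr3*, so the position of the window depends on the annotation. The full element, the AP-1 motif and the repeat were not found in it. Of the other genes, one of the 4 *Ece1* windows and the *Ednrb* window held the half-site on the opposite strand (104 and 115 bases before the start), and the windows of *Edn1*, *Ece2*, *Npr1* and *Npr2* held none of the motifs.

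The normalized counts of *Npr3* were 4486, 3593 and 3733 with vehicle and 6647, 5866 and 6141 with corticosterone, from at least 3609 reads per library. The first library of each group was the highest, and the lowest corticosterone library lay above the highest vehicle library. The mean rose from 3937 ± 480.2 to 6218 ± 396 (SD, n = 3 each), which is a log2 fold change of 0.66 (SE 0.07, 95% interval 0.52 to 0.81, limma adjusted p = 2.1e-06, two-sided exact permutation p = 0.1). The rise did not reach the fold change of the threshold, and its adjusted p was under 0.05 in 16 of 16 alternative settings, with log2 fold changes from 0.60 to 0.76. The divergent non-coding gene *Gm5144*, which shares 321 exonic bases (3.42%) with *Npr3*, had 6.40 ± 2.04 with vehicle and 15.4 ± 5.39 with corticosterone (SD, n = 3 each, limma adjusted p = 0.13), far fewer than the receptor gene.

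Levels of different genes were compared per kilobase of exon. With vehicle the order of normalized counts per kb was *Npr2* (444 ± 21.6), *Npr3* (419 ± 51.2), *Ednra* (248 ± 29.2), *Ece1* (197 ± 8.67), *Npr1* (28.8 ± 2.36), *Ece2* (24.2 ± 2.50) and *Edn1* (5.26 ± 2.53), each as mean ± SD of 3 libraries. *Npr2* and *Npr3* overlapped in this order, and the other neighbours did not. With corticosterone the order was *Npr3* (662 ± 42.2), *Npr2* (391 ± 8.69), *Ece1* (224 ± 10.4), *Ednra* (102 ± 8.0), *Ece2* (24.7 ± 1.77), *Npr1* (19.4 ± 1.75) and *Edn1* (10.5 ± 2.64), with no overlap between neighbours. By group means, *Ednra* and *Ece1* changed places, as did *Ece2* and *Npr1*, although the place of *Ece2* is uncertain because of its shared exons. The means of *Npr3* and *Npr2* also changed places, but their order with vehicle was not settled. In the first vehicle library *Npr3* (478) was above *Npr2* (419). The exon lengths count all annotated transcripts, 9.389 kb for *Npr3* and 4.667 kb for *Npr2*, and the ratios and shares below also depend on them. Undivided, *Npr3* was above *Npr2* in every library (3593 to 4486 against 1957 to 2150 with vehicle), so the order of their means changed only per kb.

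The balance of the clearance receptor and the C-type peptide receptor was followed within each library, where library scaling cancels. The ratio of *Npr3* to *Npr2* per kb was 1.14, 0.83 and 0.88 with vehicle and 1.85, 1.61 and 1.63 with corticosterone. The vehicle libraries lay on both sides of 1, a place that depends on the exon lengths, and all corticosterone libraries lay above them. Exon length is a constant of each gene and shifts the log2 ratio equally in every library. The difference between the groups was therefore bound to be the same without that division, 0.85. The log2 ratio differed by 0.85 between the group means (two-sided exact permutation p = 0.1, the smallest that 3 against 3 allow), and by 0.76 to 0.98 with 1 library left out. As a share of the summed per-kb level of the 3 natriuretic receptor genes, *Npr3* made up 51.7%, 43.7% and 45.4% with vehicle and 63.6%, 60.6% and 60.9% with corticosterone. *Npr1* made up 2.94%, 3.6% and 3.16% with vehicle and 1.89%, 1.7% and 1.82% with corticosterone, so the remainder was almost all *Npr2*.

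**Figure D4:**
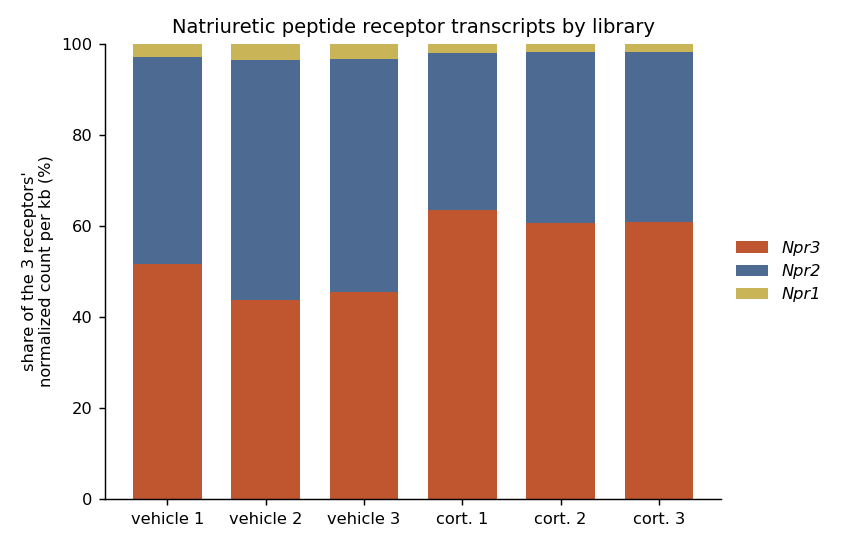
Share of the summed normalized count per kb of *Npr1*, *Npr2* and *Npr3* (vertical axis, percent) in each of the 6 libraries, with 1 stacked bar per library. The *Npr3* share runs from 43.7% to 51.7% in the vehicle libraries and from 60.6% to 63.6% in the corticosterone libraries, and *Npr1* is a thin band in all of them.

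Of 18 other genes of the natriuretic peptide and cGMP pathway, 11 had a row, while *Ostn*, *Gucy1a1*, *Gucy1a2*, *Gucy1b1*, *Pde2a*, *Pde3b* and *Pde9a* have none in the table used here. By adjusted p 3 were higher and 2 lower (8.49% and 8.2% of all genes), past the threshold 1 was higher and 0 lower (1.38% and 1.4% of all genes), and the median log2 fold change was 0.18, against -0.01 over all genes. The gene past the threshold was *Nppc* (ENSMUSG00000026241, chr1:86666291-86670571), which encodes the C-type natriuretic peptide, the ligand of NPR2 and NPR3. It had normalized counts of 0.811, 0.772 and 2.07 with vehicle, from 1, 1 and 2 reads, and 30.0, 28.7 and 33.3 with corticosterone, from 28, 26 and 26 reads. Every vehicle library was under the floor of 3 reads, and the corticosterone libraries lay close together, far above them. The log2 fold change was 4.68 (SE 0.64, limma adjusted p = 4.9e-05) and ran from 3.88 to 5.11 over the 16 alternative settings, each past the threshold. Its size rests on few vehicle reads: the depth-corrected ratio of the 80 corticosterone to the 4 vehicle reads was 26.7, with a 95% counting interval of 10.0 to 100.3.

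The other ligand genes were not resolved. *Nppb*, the B-type peptide gene, had 82.7, 31.6 and 61.0 with vehicle and 103, 79.5 and 89.6 with corticosterone, which overlapped, and its log2 fold change of 0.73 (SE 0.27) did not pass the test (limma adjusted p = 0.079). It passed in 4 of 16 alternative settings, with log2 fold changes from 0.34 to 1.03 over the 16. Among these 4 were limma and edgeR with the replicate number as a block (adjusted p = 0.034 and 0.013). *Nppa*, the atrial peptide gene, had a log2 fold change of -0.12 (SE 0.54, limma adjusted p = 0.94) on 6 to 23 reads per library. *Furin*, whose protease processes several of these precursors and that of endothelin-1, rose by 0.20 (SE 0.04, limma adjusted p = 0.0037). It kept the call in 14 of 16 alternative settings and lost it without a variance trend and under upper-quartile scaling.

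Behind the receptors, both genes of cGMP-dependent protein kinases fell. *Prkg2*, the isoform that acts downstream of NPR2 in growth cartilage, had 2413, 3019 and 2325 with vehicle and 1913, 2125 and 1859 with corticosterone, with no overlap and a log2 fold change of -0.39 (SE 0.08, limma adjusted p = 0.0021). *Prkg1* had 309, 291 and 296 with vehicle and 250.5, 241 and 234 with corticosterone, a log2 fold change of -0.30 (SE 0.08, limma adjusted p = 0.018). The call of *Prkg2* was kept in 14 and that of *Prkg1* in 10 of 16 alternative settings. *Abcc4*, which encodes a transporter that exports cyclic nucleotides, rose from 447 ± 25.2 to 703 ± 29.8 (SD, n = 3 each), by 0.65 on the log2 scale (SE 0.07, limma adjusted p = 2.5e-06). The related *Abcc5* (-0.02, adjusted p = 0.89) and the phosphodiesterase gene *Pde3a* (0.18, adjusted p = 0.50) did not pass the limma test. The phosphodiesterase gene *Pde5a* (-0.73, limma adjusted p = 0.54) did not pass it either, on only 3 to 13 reads per library.

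**Figure D5:**
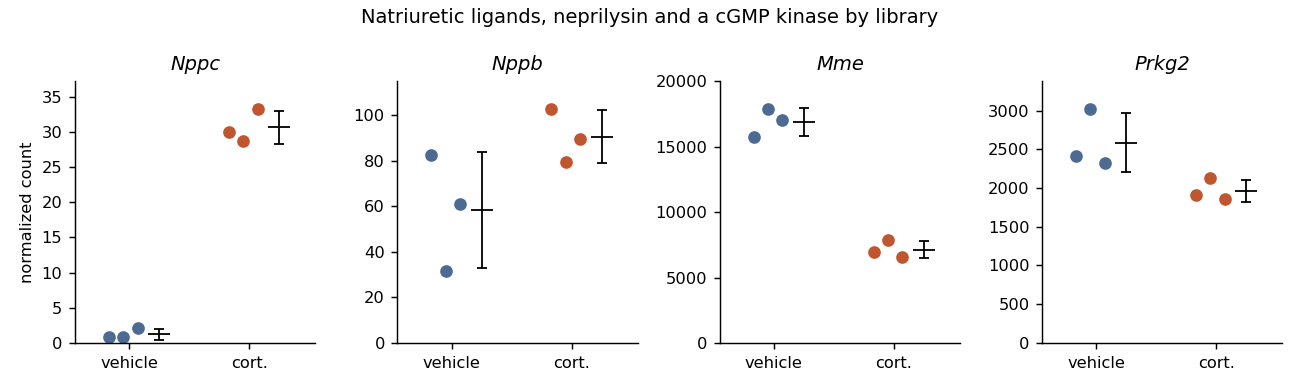
Normalized count (vertical axes, linear, starting at 0) of *Nppc*, *Nppb*, *Mme* and *Prkg2*, with 1 point per library and the mean ± SD of 3 libraries per group beside the points. *Nppc* goes from at most 2.07 with vehicle to at least 28.7 with corticosterone, *Mme* goes from at least 15734 to at most 7848, and the groups of *Nppb* overlap.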

How the data were processed

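RNA-seq of 3 vehicle and 3 corticosterone cultures was used. The deposited values are a signal for each gene in each library that the authors named FPKM. In each library 100% of the values were whole multiples (within 1% of a read) of 1 step for all genes, so they are read counts divided by a size factor, and whole reads were recovered. The labels give mm10 as the build and the NEBNext Ultra RNA kit. The aligner, the counter and its strand setting are not given in the sources used here.

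The genes and lists were chosen with earlier results of these data known. The design assumed FPKM and was kept, with limma 3.58.1 (R 4.3.3, variance trend) on log2(value + 0.1), keeping genes whose mean reached 0.1, a filter that removed none (lowest mean 0.257). Single values were compared by exact permutation. Named genes were the 8 genes, 4 pathway lists, treatment and cell type markers, overlapping genes and the 5 nearest profiles of a gene past the threshold. Alternatives were a pseudocount of 1, no filter, a mean of at least 10, no variance trend, upper-quartile and same-total scaling, a replicate block, edgeR 4.0.16 and DESeq2 1.42.0 on the recovered reads, and leaving out each library.

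GENCODE (GRCm38) matched 23983 gene identifiers and not 33. Promoter windows came from RefSeq and were found for 8 of 8 genes. No libraries were duplicates (chi-square per degree of freedom between any pair of at least 3.38). On simulated counts of the comparison, with 200 genes changed by 2 on the log2 scale, limma (23748 genes) recovered 193 of the 200 with 0 false calls, edgeR (13855 genes) 194 with 3 and DESeq2 (24016 genes) 190 with 0. The changed genes all had a mean of at least 10, and every gene had the same dispersion. Recovery of smaller changes or of genes with few reads was therefore not measured. Intervals from counts and the floor of 3 reads cover counting error only.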

Additional observations from a re-analysis of the deposited data

How the results depend on the processing

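Of 16 alternatives, *Ednra* stayed past the threshold in 16 and *Npr3* kept an adjusted p under 0.05 in 16. Among them the fit without a filter repeats the main fit, because the filter removed no gene. Its agreement was fixed in advance, here and in every other count out of 16 alternatives. *Edn1* stayed short of the test in 16, with log2 fold changes from 0.71 to 1.43 when 1 library was left out. Without a variance trend, *Ece1* (0.19), *Npr1* (-0.57) and *Npr2* (-0.18) lost the call, leaving 1 gene higher and 1 lower of the 7 by adjusted p, and 0 vasoactive genes lower past the threshold. Upper-quartile scaling took the call from *Ece1* (0.12), turned *Ece2* to -0.04, and left 1 of the 7 genes higher, 1 transducer gene higher and 1 lower, and 1 vasoactive gene higher. Scaling to the same total did the same to *Ece1* (0.14) and *Ece2* (-0.01), with 1 of the 7 genes and 1 transducer gene higher. These scalings moved the median of genes with a mean of at least 10 by under 0.1, to -0.074 and -0.047. The endothelin list had 1 gene lower past the threshold, in place of 2, with a pseudocount of 1, where *Edn2* lost the call. It also had 1 with a mean of at least 10, edgeR and DESeq2, which gave *Edn2* no adjusted p. DESeq2 left 0 vasoactive genes lower.

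With 1 library left out, *Ece1* ran from 0.15 to 0.22 and lost the call each time, *Npr2* ran from -0.22 to -0.15, and *Ece2* ran from -0.05 to 0.10, below 0 without the first vehicle (-0.05) or first corticosterone (-0.02) library. Of the 7 genes 1 was then higher in each fit by adjusted p. Past the threshold, 0 to 2 genes of the endothelin list were higher and 1 lower, 1 to 2 of the natriuretic list were higher, 0 to 1 transducer genes and 0 to 1 vasoactive genes were lower, and over all genes 204 to 321 were lower (220 without the second and 204 without the third vehicle library, against 337). A fit with 2 libraries in 1 group leans on the spread of the other.

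Both groups carry replicate numbers 1 to 3, and no label ties a number to a shared passage or day. Deviations from the group means correlated at -0.044, 0.001 and 0.023 between same-numbered libraries across 13880 genes, and 1 of 6 libraries correlated best with its own number. Pairing by number was thus not seen over these genes, and whether the cultures were paired is not known. With the replicate number as a block, limma gave 297 genes higher and 294 lower past the threshold, and adjusted p of 0.046 for *Ece1*, 2.2e-08 for *Ednra*, 0.016 for *Npr1*, 0.017 for *Npr2* and 4.1e-07 for *Npr3*. The block left 1 gene of the endothelin list lower, also with edgeR, which gave *Edn2* no adjusted p, and changed no call of the 7 genes. Of the listed genes it took the call from *Edn2* (limma adjusted p = 0.062) and gave one to *Nppb* (0.034 by limma, 0.013 by edgeR) and, by edgeR, to *Ace* (0.041). For the ratio of *Npr3* to *Npr2* the paired sign-flip permutation gave p = 0.25, the smallest that 3 pairs allow. The ratio of *Ednra* to *Ednrb*, with its alternatives, was not run because *Ednrb* has no row in the table used here. The depth limits *Edn1*, *Nppc* and *Edn2*, which had at most 28 reads in a library.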

Other observations

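Of 20 genes of other vasoactive peptides, their receptors and lipid receptors, 14 had a row in the table used here and were tested. By adjusted p 5 were higher and 4 lower (8.49% and 8.2% of all genes), past the threshold 2 were higher and 1 lower (1.38% and 1.4% of all genes), and the median log2 fold change was 0.56, against -0.01 over all genes. *Agt*, the angiotensinogen gene, had normalized counts of 74.6, 92.6 and 73.4 with vehicle and 239.8, 243 and 229 with corticosterone. The groups were far apart, with a log2 fold change of 1.57 (SE 0.13, limma adjusted p = 1.1e-07), past the threshold in 16 of 16 alternatives. *F2r*, which encodes the thrombin receptor PAR1, had 3079, 2543 and 2533 with vehicle and 5710, 5410 and 5807 with corticosterone, a log2 fold change of 1.06 (SE 0.06, limma adjusted p = 3.4e-09). The bradykinin receptor genes *Bdkrb1* and *Bdkrb2* rose by 0.56 and 0.76 (limma adjusted p = 1.2e-04 and 3.1e-06).

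Among the genes of receptor-activity-modifying proteins, *Ramp1* rose by 0.56 (limma adjusted p = 0.015), a call kept in 11 of 16 alternatives, and *Ramp2* fell by 1.32 on 6 to 37 reads per library (limma adjusted p = 0.036), a call kept in 9 of 16 alternatives. *Ramp3* had means under the floor in both groups. The lysophospholipid receptor genes *Lpar1*, *S1pr1* and *S1pr2* fell by 0.44, 0.18 and 0.34 on the log2 scale (limma adjusted p = 5.1e-05, 0.0054 and 2.1e-04). *Ace*, which encodes the angiotensin-converting enzyme, had 5.77 ± 5.94 with vehicle and 15.6 ± 1.53 with corticosterone (SD, n = 3 each) and did not pass the test (log2 fold change 2.10, limma adjusted p = 0.082). It was past the threshold in 4 of 16 alternatives, with log2 fold changes from 1.10 to 2.99 over the 16, and with the replicate block the adjusted p was 0.084 by limma and 0.041 by edgeR.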
